A study of Homo sapiens with 9 samples.

Results

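The basal transcriptome of OCI-Ly1 was described from the 3 DMSO samples among the 9 samples of the series, chosen by their treatment label alone. OCI-Ly1 is an established human cell line of diffuse large B-cell lymphoma, grown in IMDM with 10% serum. In the series it was kept for 48 h with DMSO, the vehicle, or with 150 or 500 nM JIB-04, an inhibitor of Jumonji histone demethylases, with 3 samples in each group; the treated samples are not used here, and no comparison between groups is made. The vehicle cells are thus cells of 1 line that had all received the solvent, and no untreated sample or second line was used. Total RNA depleted of ribosomal RNA was sequenced and counted per gene symbol, with 44421096, 28476845 and 44307274 counts in DMSO 1, 2 and 3. Whether the 3 samples came from separate cultures is not stated, so the spread between them may be partly technical.

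Germinal-centre B cells, from which many of these lymphomas are thought to arise, run a programme led by the repressor BCL6 and the B-lineage factor PAX5. BCL6 holds back PRDM1, the regulator that drives exit towards the plasma cell, and the cells carry MME (CD10) on their surface. They mutate their antibody genes, divide fast in the dark zone of the germinal centre, and are selected through antigen presentation in the light zone.

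Levels are given as CPM, the counts of a gene divided by the TMM-scaled sample total and multiplied by 1000000, always in the order DMSO 1, 2 and 3, with the mean ± SD (n = 3). A gene is written as expressed at 1 CPM or more in each of the 3 samples, as trace at a mean under 0.1 CPM, as silent at 0 counts in all 3, and as low in between. Counts grow with transcript length, so the order of different genes is given as CPM per kilobase (kb) of the gene's longest reference transcript, except where the symbols holding the most counts are ranked. CPM values of different genes that stand side by side give no order. A gene with 0 counts may still have up to 0.0256 CPM, which is 3 counts in the 117205215 of all DMSO samples; such limits cover counting error only, since the reads carry no molecular identifiers.

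Of the 6 germinal-centre markers set for the line, 4 stood near or above 200 CPM, 1 was barely expressed and 1 was practically missing. MME was at 378, 397 and 394 CPM (390 ± 9.93), and BCL6 at 227, 214 and 221 CPM (221 ± 6.33). PAX5 was at 211, 209 and 197 CPM (206 ± 7.45), and CD79A, the signalling chain of the B-cell receptor, at 207, 196 and 191 CPM (198 ± 8.22). The 3 samples were close to each other for each of these genes. PRDM1 was at 1.46, 2.22 and 2.28 CPM (1.99 ± 0.458), with DMSO 1 the lowest. LMO2, a LIM-only adaptor protein used as a germinal-centre marker, had 2 counts in DMSO 1 and none in DMSO 2 and 3. PAX5 and CD79A mark B cells in general. Of the markers tied to the germinal centre itself, BCL6 and MME were expressed and LMO2, at trace, went against the description, while PRDM1, which such cells should largely lack, was near 2 CPM. None of the exonic bases of LMO2 or PRDM1 is shared with another gene in the reference.

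Per kilobase, the order of the markers was CD79A (158 CPM per kb), MME (69.3), BCL6 (61.9), PAX5 (23.9), PRDM1 (0.385) and LMO2 (0.00652). The ranges of the 3 samples did not overlap between any neighbours in this order. Among 18898 coding genes with a length, CD79A ranked 336th, MME 889th, BCL6 1036th and PAX5 3049th, PRDM1 10946th and LMO2 14109th. PAX5 depended on the length used: its longest transcript is mostly non-coding, and per kilobase of coding sequence it ranked 925th, above BCL6 at 1678th and MME at 948th. The 5 genes of the lists with the level per kilobase nearest to that of BCL6 were UHRF1 (61.8 CPM per kb), RFX5 (62.0), GRB2 (62.0), BIRC5 (62.4) and POU2AF1 (61.3). These values lie within the spread of BCL6 over the samples (± 1.77), so the 6 genes cannot be ordered.

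**Figure D1:**
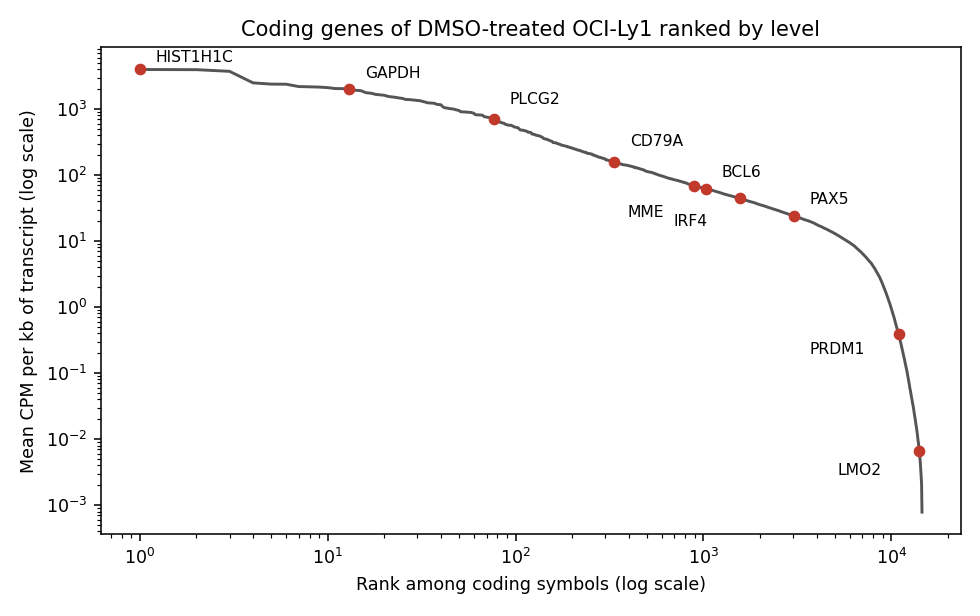
Coding genes ranked by mean level in the 3 DMSO samples (vertical axis: CPM per kb of the longest transcript; horizontal axis: rank; both logarithmic; genes with 0 counts are left out). Red points mark named genes: HIST1H1C leads, PLCG2 stands at rank 77, BCL6 at 1036, PRDM1 at 10946 and LMO2 at 14109.

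Of 25370 symbols, 12031 (47.4%) were expressed, 3393 low, 2519 trace and 7427 silent. Among 18958 coding symbols 10854 (57.2%) were expressed and 4346 silent, and the median of the expressed ones was 39.6 CPM, or 11.4 CPM per kb. Counts were spread over many genes: the 10 most abundant symbols held 5.22% ± 0.116 of all counts, the top 100 held 17.4% ± 0.142 and the top 1000 held 50.3% ± 0.158. Coding genes took 95.7% ± 0.099.

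The most abundant symbol was RPPH1, the RNA of ribonuclease P, at 12046, 11260 and 10446 CPM (11250 ± 800), with all of its exonic bases shared with another annotated gene. It was followed by the translation factor EEF1A1 at 9561 ± 194 CPM. Next stood PLCG2, the phospholipase that carries the B-cell receptor signal to calcium, at 6267, 5692 and 6295 CPM (6085 ± 340). It held more counts than MALAT1 (3815 ± 197 CPM), GAPDH (3751 ± 82.9) or ACTB (3340 ± 103). Because its transcript is 8707 bases long, PLCG2 fell to rank 77 among coding genes per kilobase, at 699 CPM per kb. Of its exonic bases 3.65% are shared with another gene of the reference, RN7SKP176. Whether reads piled up on that stretch was not tested. RMRP, the RNA of the mitochondrial RNA-processing ribonuclease, was at 5436 ± 149 CPM. Another annotation entry shares 98.5% of the exonic bases of RMRP. The rest of the 20 symbols with the most counts were TUBA1B, HSPA8, HIST1H1C, HIST1H1B, TUBB, RPL7, ENO1, PPIA, HSP90AB1, EEF2, HMGB1, PTMA and LCP1, genes of the cytoskeleton, chaperones, glycolysis, translation and chromatin among them, down to 2095 CPM for LCP1.

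Per kilobase the leading coding genes were those of packaging and translation. HIST1H1C, a linker histone gene, was at 3975 CPM per kb, HIST1H3B at 3951 and HIST1H1B at 3729. The ranges of HIST1H1C and HIST1H3B overlapped, and DMSO 3 was the lowest sample for both. Below them came RPS18 (2495 CPM per kb), TUBA1B (2176), EEF1A1 (2153) and GAPDH (2000). The rest of the 20 highest were the histone genes HIST1H4D, HIST1H1E, HIST1H3D, HIST1H2AE, HIST1H2AM and HIST1H4K, the ribosomal protein genes RPS27, RPL7A, RPL41, RPS2 and RPL7, and PTMA and ACTB, between 1618 and 2388 CPM per kb. HIST1H3D shares all of its exonic bases with another gene, so its place is uncertain. The 68 replication-dependent histone genes together held 2.89% ± 0.158 of all counts, and 55 of them were expressed.

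Germinal-centre and B-lineage transcription factors were expressed almost without exception, 32 of 35, with a median of 121 CPM against 4.93 CPM over all coding genes, or 21.6 against 1.55 CPM per kb. The E proteins, which open B-lineage genes, were abundant: TCF3 was at 610, 565 and 524 CPM (566 ± 42.7) and TCF4 at 598 ± 29.7 CPM. IKZF3 (635 ± 17.6 CPM) and IKZF1 (453 ± 10.6 CPM), lymphoid zinc-finger factors, stood beside them, with ETS1 at 362 ± 18.5 CPM and ELF1 at 286 ± 10.8 CPM. Per kilobase TCF3 led the list (127 CPM per kb), then ELF1 (80.3), ID3 (74.3), IKZF1 (71.9), TCF4 (71.7) and ETS1 (70.5). ID3, an inhibitor of the E proteins, was among the less even genes at 105, 95.6 and 78.4 CPM, lowest in DMSO 3. The octamer co-activator POU2AF1 was at 202 ± 7.17 CPM, above both of the octamer factors per kilobase: 61.3 CPM per kb against 13.0 for POU2F1 and 3.40 for POU2F2.

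Genes of factors for opposite fates were expressed together. IRF4, which at high dose favours plasma-cell and activated fates, was at 254, 234 and 222 CPM (237 ± 16.2), and IRF8, a germinal-centre factor, at 122, 119 and 122 CPM (121 ± 1.58). Per kilobase the pair were at 44.4 and 40.0 CPM per kb. BACH2, a repressor that keeps B cells from plasma-cell fate, was at 199, 194 and 198 CPM (197 ± 2.40), one of the steadiest genes of the list. EBF1 (81.2 ± 4.87 CPM), SPIB (85.9 ± 3.92 CPM), FOXO1 (91.7 ± 1.05 CPM) and MEF2C (155 ± 11.7 CPM) were expressed as well.

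At the bottom of that list were 3 genes below the expressed class. KLF2, a factor of resting lymphocyte traffic, had 0 counts in every sample, and LMO2 had 2 in all. MEF2B, a germinal-centre co-factor gene, was at 0.337, 0.459 and 0.0901 CPM, with 32 counts. For MEF2B the value is uncertain, since 67.8% of its exonic bases are shared with a read-through gene and the table's entry for that gene, MEF2BNB-MEF2B, held 0 counts; its neighbour MEF2BNB had 9.01 ± 0.390 CPM. BCL11A (0.462 CPM per kb), RUNX3 (1.26) and HHEX (1.99) were the lowest that were expressed.

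Among surface and effector genes of the germinal centre, 28 of 32 were expressed, at a median of 87.5 CPM. LRMP (also JAW1) was at 660, 627 and 633 CPM (640 ± 17.5) and TCL1A, a co-activator of the kinase AKT, at 356, 330 and 327 CPM (338 ± 16.1). KLHL6, an adaptor in B-cell receptor signalling, was at 341 ± 4.42 CPM, and EZH2, the Polycomb methyltransferase that germinal-centre cells need, at 242 ± 8.03 CPM. By level per kilobase TCL1A led (242 CPM per kb), followed by LRMP (141), ELL3 (101), EZH2 (91.7) and RGS13 (90.1). For ELL3, 84.2% of the exonic bases are shared with other genes, so its place is uncertain.

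UNG and POLH, which act in antibody-gene mutation but are not particular to it, were expressed. UNG, a glycosylase that removes uracil from DNA, was at 74.4 ± 2.49 CPM, and POLH, an error-prone polymerase, at 123 ± 8.20 CPM. The genes that hold the cells in place were expressed too: P2RY8 (269 ± 13.6 CPM), S1PR2 (71.9 ± 3.86 CPM), their G protein subunit GNA13 (225 ± 8.90 CPM) and its effector ARHGEF1 (135 ± 11.5 CPM). GCSAM, which dampens motility, was at 111 ± 1.65 CPM. S1PR1, the receptor for leaving the tissue, was at 1.55, 2.01 and 1.85 CPM (1.80 ± 0.235), while S1PR5 was silent.

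In contrast, some of the genes most used to name a germinal-centre lymphoma were scarce. SERPINA9 had 16 counts in all (0.135, 0 and 0.225 CPM), SUGCT 48 counts (0.437 ± 0.185 CPM) and ASB13 6 counts. FAS, the death receptor of the germinal centre, was at 0.808, 1.27 and 1.22 CPM and missed the expressed class through DMSO 1 alone. FAS, SERPINA9 and SUGCT were thus in the low class and ASB13, like LMO2, in the trace class, in the samples in which BCL6, MME, LRMP, S1PR2 and GCSAM were expressed.

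**Figure D2:**
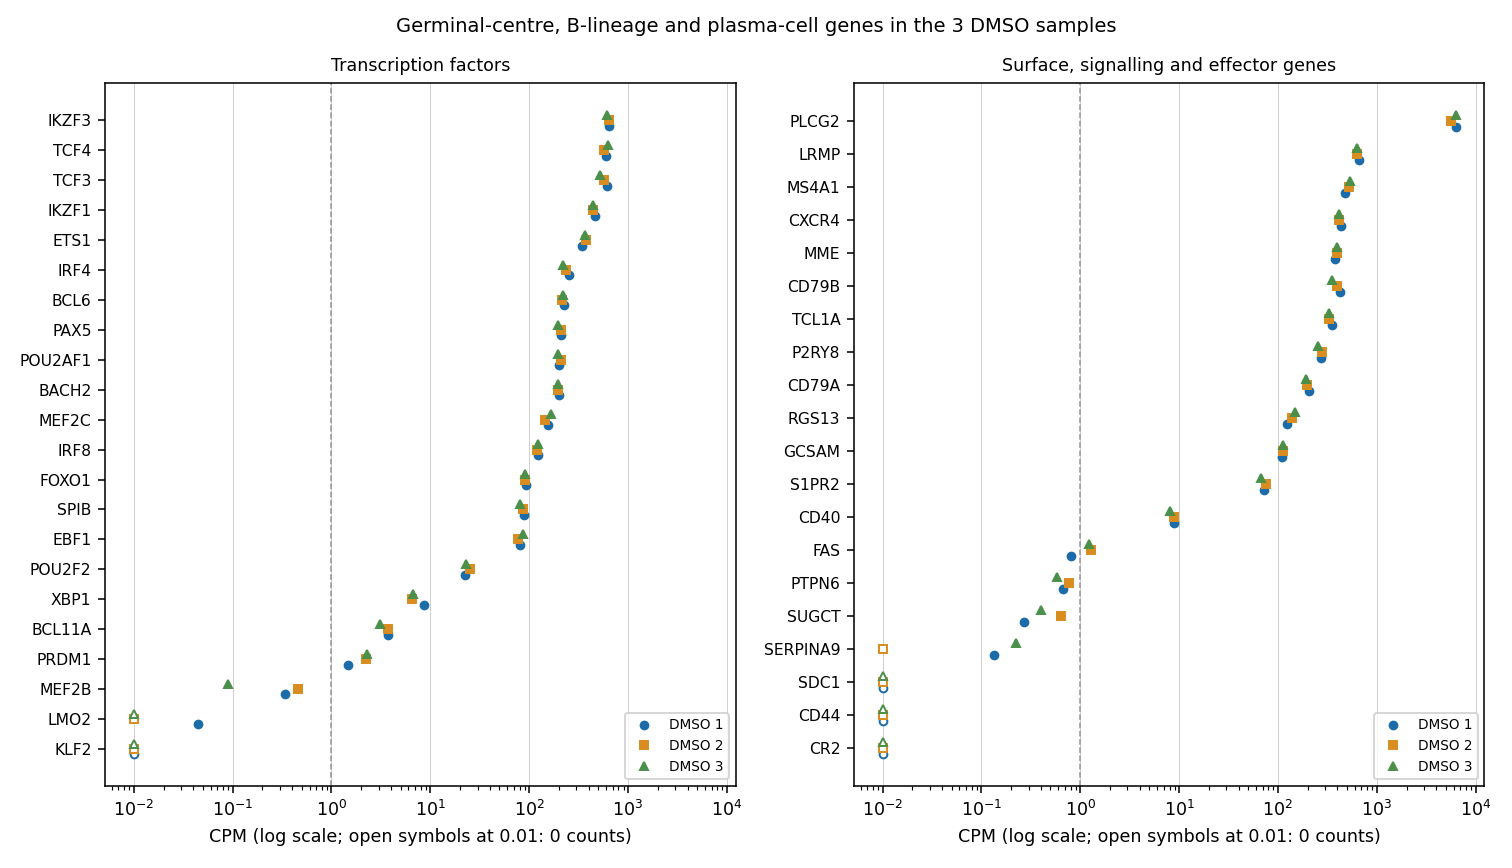
Level in each DMSO sample of selected germinal-centre, B-lineage and plasma-cell genes (CPM, logarithmic axis; left: transcription factors; right: surface, signalling and effector genes). Open symbols at 0.01 mark 0 counts and the dashed line 1 CPM; the 3 samples lie together for genes above about 10 CPM and scatter below 1 CPM.

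The dark-zone list had 12 of 13 genes expressed, at a median of 197 CPM, and the light-zone list 13 of 21, at 4.06 CPM; per kilobase the medians were 41.4 and 1.49 CPM per kb. In the first, TOP2A (1200 ± 51.7 CPM), MKI67 (524 ± 32.2 CPM) and HMGB2 (528 ± 26.4 CPM) are genes of dividing cells, and CXCR4, the receptor that draws cells to the dark zone, was at 435, 416 and 411 CPM (421 ± 12.7). Only KIT was silent. In the second, MYC (137 CPM per kb), IRF4 (44.4) and the NF-kB inhibitor NFKBIA (38.3) led, followed by CXCR5 (15.3), the co-stimulator CD86 (11.9) and CD83 (8.53). Some further members were near or below 1 CPM: BCL2A1 was at 1.2 ± 0.155 CPM, EGR1 at 1.55, 1.13 and 0.721 CPM, EGR2 at 0.440 ± 0.352 CPM and EGR3 at trace, with EBI3 and CCL22 silent. Both lists hold genes common to any dividing cell line, and CXCR5 shares 88.6% of its exonic bases with BCL9L. DMSO 1 was the highest of the 3 samples in EGR1, EGR2 and EGR3.

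Of 26 genes linked to the activated B-cell-like class of this lymphoma, 19 were expressed, at a median of 18.2 CPM. IRF4 (44.4 CPM per kb) and the kinases PIM1 (44.0) and PIM2 (43.0) were the highest and within each other's spread, followed by BLNK (33.5), BMF (23.3) and PTPN1 (20.3). CD44, the hyaluronan receptor, CREB3L2, IL6 and IL2RB were silent, and CCND2 had 6 counts. Thus IRF4 was high while a part of the same list was silent.

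Plasma-cell genes were split. The joining chain of secreted antibody, IGJ, was at 560, 565 and 580 CPM (568 ± 10.5), MZB1, a chaperone of antibody assembly, at 183, 174 and 169 CPM (175 ± 7.22), and the receptor TNFRSF17 (BCMA) at 49.6, 56.5 and 42.3 CPM (49.4 ± 7.07). XBP1, the factor of the secretory programme, was at 8.55, 6.53 and 6.63 CPM (7.23 ± 1.14), far lower per kilobase (3.91 CPM per kb) than IGJ (395) or MZB1 (213). SDC1 (CD138), the defining surface marker of plasma cells, and CREB3L2 were silent, and PRDM1 was near 2 CPM. In all, 15 of 20 genes of the list were expressed, several of which, such as HSP90B1 (253 ± 13.2 CPM) and PDIA4 (367 ± 10.6 CPM), every secreting cell uses. Antibody constant-region genes were not analysed here; IGLL5, which shares 43.6% of its exonic bases with light-chain gene segments, was at 221, 179 and 189 CPM.

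Genes of B-cell receptor signalling were expressed in 34 of 37 cases, at a median of 90.0 CPM. Besides PLCG2, the receptor chain CD79B was at 421, 396 and 352 CPM (389 ± 35.1), lowest in DMSO 3, and the kinase SYK at 441, 442 and 439 CPM (441 ± 1.80), the most even of them. The Src-family kinases LYN (279 ± 7.67 CPM) and BLK (121 ± 5.43 CPM) were joined by LCK, best known from T cells, at 355, 348 and 339 CPM (347 ± 8.22). Per kilobase LCK (160 CPM per kb) was above SYK (88.0), LYN (48.0) and BLK (46.4), and its exons are shared with no other gene. FYN was at 4.16 ± 0.331 CPM and FGR at 13.5 ± 1.76 CPM.

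Downstream, BTK was at 148 ± 6.28 CPM, the adaptor BLNK at 59.7 ± 5.43 CPM and the protease MALT1 at 55.9 ± 6.11 CPM. Of the paired phospholipases, PLCG1 was at 87.6 ± 6.08 CPM, or 11.8 CPM per kb against 699 for PLCG2. PTPN6 (SHP-1), the phosphatase that ends receptor signals, was at 0.673, 0.776 and 0.586 CPM (0.678 ± 0.0953), with 78 counts, although the lipid phosphatase INPP5D (110 ± 3.01 CPM) was expressed. No exonic base of PTPN6 is shared with another gene.

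B-cell surface genes were expressed in 27 of 33 cases. FCRLA, an Fc receptor-like protein kept inside the cell, was at 638, 634 and 610 CPM (627 ± 15.1), MS4A1 (CD20) at 479, 521 and 531 CPM (511 ± 27.6) and CD24 at 494 ± 24.8 CPM. Per kilobase CD79B (307 CPM per kb), FCRLA (266), CD52 (250) and CD24 (196) led. CD40, through which T cells help, was at 8.58 ± 0.509 CPM. The complement receptor CR2 (CD21) had 0 counts in each sample, FCER2 (CD23) 7 in all and CCR7 100. IL7R, a cytokine receptor of B-cell precursors and T cells, was at 372, 380 and 375 CPM (376 ± 3.77), and ARPP21 (87.7 ± 6.07 CPM), SOX4 (84.3 ± 1.12 CPM) and RAG1 (3.31 ± 0.625 CPM) of the 12 precursor genes were expressed as well. DNTT, the polymerase of antigen-receptor joining, had 2 counts, and VPREB1 and CD34 had none.

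Antigen presentation through MHC class II was divided between its regulators and its antigen-binding chains. CD74, the invariant chain, was at 259, 239 and 235 CPM (245 ± 13.0). The promoter factors RFX5 (226, 217 and 222 CPM), RFXANK (42.3 ± 4.36 CPM) and RFXAP (6.76 ± 0.745 CPM) and the master co-activator CIITA (51.6, 50.2 and 44.3 CPM) were all expressed. The peptide-loading chains HLA-DMA (9.46 ± 0.938 CPM) and HLA-DMB (6.44 ± 0.638 CPM) were expressed at modest levels, as was HLA-DOB (5.31 ± 0.664 CPM). HLA-DOA was at trace (0.075 CPM). The exonic bases shared with another gene are 15.5% for HLA-DMA, 31.4% for HLA-DMB and 39.2% for HLA-DOB. The chains that show peptide to T cells were not expressed. HLA-DRA had 20 counts in all (0.247, 0.247 and 0.0451 CPM) and HLA-DQB1 had 2. HLA-DRB1, HLA-DRB5, HLA-DPA1, HLA-DPB1 and HLA-DQA1 had none in any sample.

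The HLA-DRB and HLA-DQ genes are near copies of each other and differ between people, so reads of the cell line's own alleles could be split or lost in the authors' counting, which was not tested. HLA-DRA was low as well, and whether its reads were lost in the same way was not tested either. At most 1.99% of the exonic bases of HLA-DPA1 and HLA-DPB1 are shared with another gene. That share covers exon positions only, not differences between alleles. In MHC class I, B2M was at 375, 439 and 406 CPM (407 ± 32.1), HLA-C at 43.5 ± 4.06 CPM and HLA-B at 17.1 ± 1.97 CPM, with 15 of 17 genes of the list expressed. Per kilobase the chaperone CALR (445 CPM per kb) and B2M (238) led, followed by the immunoproteasome subunits PSMB8 (63.6), PSMB9 (56.8) and PSMB10 (44.8). HLA-E was at 2.38 ± 0.388 CPM, the class I co-activator NLRC5 at 3.36 ± 0.255 CPM, and HLA-F and HLA-G at trace.

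**Figure D3:**
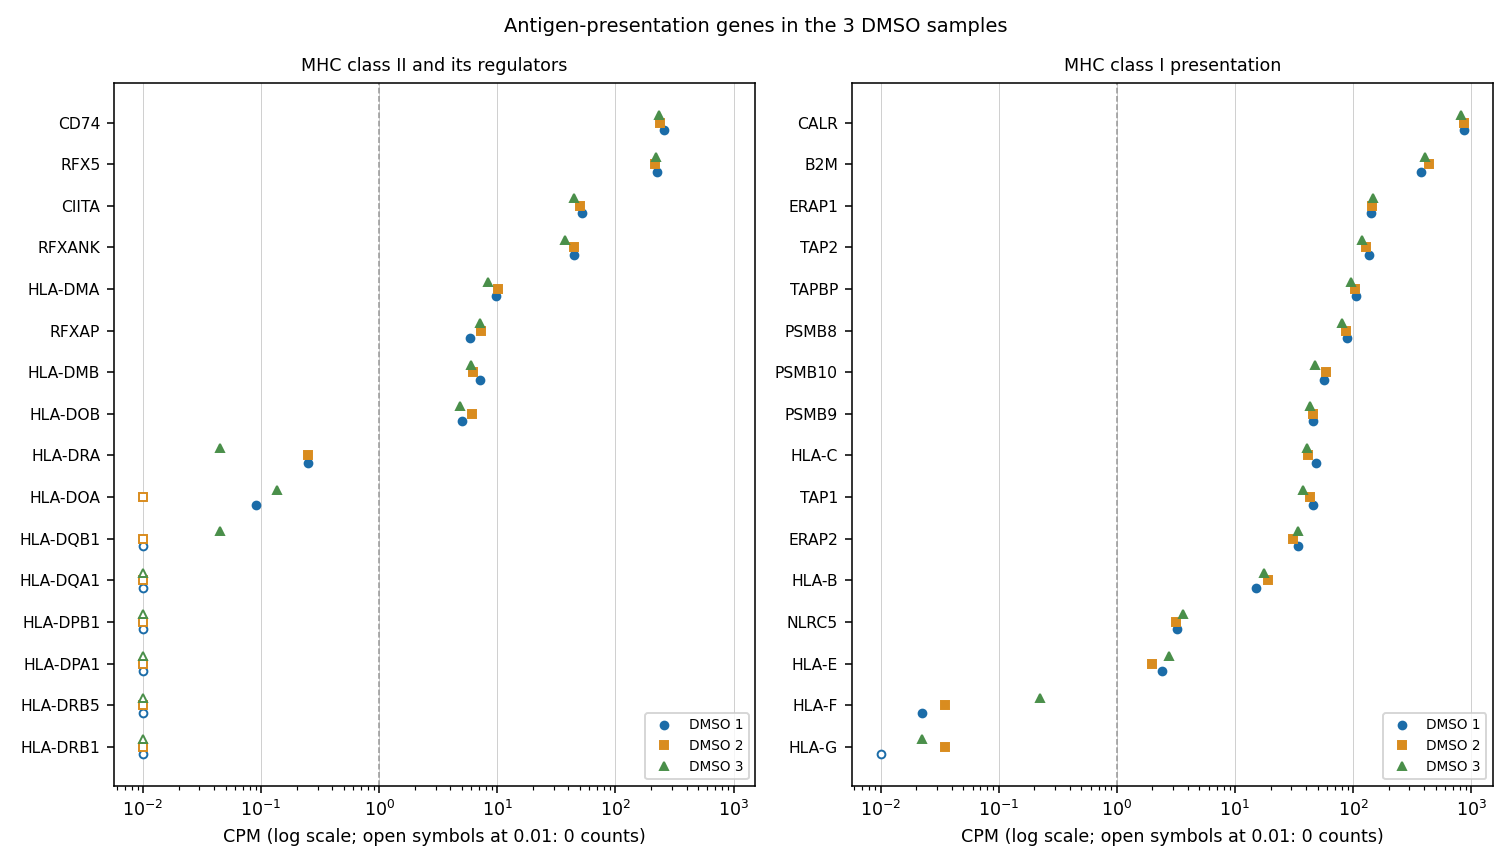
Level of antigen-presentation genes in each DMSO sample (CPM, logarithmic axis; left: MHC class II genes and their regulators; right: MHC class I genes). Open symbols at 0.01 mark 0 counts and the dashed line 1 CPM; CD74, RFX5 and CIITA lie above 40 CPM in each sample while 5 of the antigen-binding class II chains have no counts.

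Promoters of class II genes are shown because expressed and silent members of the pathway carry the same 5 letters. The windows run from 250 bases before to 50 after the transcription start in RefSeq (GRCh38.p14), 5′ to 3′ on the gene's strand. Capitals mark CCAAT or its reverse complement ATTGG, the core of the box bound by NF-Y beside the RFX complex. Whether a match is that box, or lies beside an RFX site, was not tested. CD74 (chr5:150412861-150413160, minus strand) has 1 such match, HLA-DMA (chr6:32953048-32953347, minus strand) 2 and the silent HLA-DPB1 (chr6:33075740-33076039, plus strand) 2.
CD74: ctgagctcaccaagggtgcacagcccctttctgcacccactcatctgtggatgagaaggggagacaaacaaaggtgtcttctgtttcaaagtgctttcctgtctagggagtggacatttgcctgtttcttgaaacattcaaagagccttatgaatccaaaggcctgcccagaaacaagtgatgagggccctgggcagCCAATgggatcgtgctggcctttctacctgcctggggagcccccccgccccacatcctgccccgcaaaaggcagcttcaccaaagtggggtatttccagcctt
HLA-DMA: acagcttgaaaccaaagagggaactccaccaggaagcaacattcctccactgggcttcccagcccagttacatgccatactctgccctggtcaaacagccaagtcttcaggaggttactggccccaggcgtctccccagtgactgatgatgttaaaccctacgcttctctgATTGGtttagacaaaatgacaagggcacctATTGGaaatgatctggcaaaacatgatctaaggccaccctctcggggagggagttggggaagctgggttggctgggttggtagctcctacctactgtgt
HLA-DPB1: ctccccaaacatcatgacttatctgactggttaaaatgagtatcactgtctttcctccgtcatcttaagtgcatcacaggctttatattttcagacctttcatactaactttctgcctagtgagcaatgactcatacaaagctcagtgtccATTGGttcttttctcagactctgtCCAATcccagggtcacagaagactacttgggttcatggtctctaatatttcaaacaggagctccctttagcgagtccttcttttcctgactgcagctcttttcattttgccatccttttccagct
The match of CD74 begins 53 bases before the start, those of HLA-DMA 79 and 49 bases before it and those of HLA-DPB1 99 and 75 bases before it. Of 16 promoters of the class II list, 13 (81.2%) held the pentamer on either strand, against 36.5% of 15120 coding promoters. The 13 include the expressed RFX5, CD74, HLA-DMA, HLA-DMB and HLA-DOB as well as silent genes such as HLA-DRB1 and HLA-DQA1, so the letters did not separate expressed from silent members.

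Promoter composition differed between the expression classes over the whole table. A promoter is written here as CpG-rich where G and C make up at least 50% and the ratio of observed to expected CpG is at least 0.6. This held for 81.4% of 9085 promoters of expressed coding genes, 49.8% of 1625 of low genes, 43.7% of 1175 of trace genes and 33.6% of 3235 of silent genes. TATAAA, on either strand, ran the other way, in 5.54%, 11%, 12.0% and 18.6% of promoters. The octamer ATGCAAAT, on either strand, was in 1.39% of promoters of expressed and 1.73% of silent genes. The lists differed too: 4 of 22 promoters of B-cell surface genes (18.2%) were CpG-rich, 0 of 17 of the Fc receptor and Fc receptor-like list, 2 of 13 of the T-cell and 1 of 13 of the myeloid list. The share was 62.1% of 29 for the germinal-centre and B-lineage factors, 15 of 30 promoters for B-cell receptor signalling and all 17 for proliferation.

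CD79A and KLF2 are shown because each departs from the composition most common in its class, and were chosen after their values were seen. In both sequences, from chromosome 19 and the plus strand (chr19:41877029-41877328 and chr19:16324576-16324875), capitals mark CG.
CD79A: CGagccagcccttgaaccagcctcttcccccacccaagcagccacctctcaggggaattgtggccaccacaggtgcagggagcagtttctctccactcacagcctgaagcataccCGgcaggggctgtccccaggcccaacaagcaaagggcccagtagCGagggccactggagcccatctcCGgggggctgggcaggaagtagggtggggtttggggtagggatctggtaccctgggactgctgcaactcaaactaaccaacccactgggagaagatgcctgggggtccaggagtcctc
KLF2: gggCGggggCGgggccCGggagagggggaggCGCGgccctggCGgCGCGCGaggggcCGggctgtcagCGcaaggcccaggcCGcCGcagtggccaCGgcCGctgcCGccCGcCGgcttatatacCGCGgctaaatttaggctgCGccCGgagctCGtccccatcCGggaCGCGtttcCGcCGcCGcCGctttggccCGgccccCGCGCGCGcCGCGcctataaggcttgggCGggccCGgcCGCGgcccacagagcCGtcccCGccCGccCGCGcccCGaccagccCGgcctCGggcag
The window of CD79A, expressed at 198 CPM, holds 4 CG pairs (ratio 0.134, 63.0% G and C), and that of KLF2, with no counts, holds 49 (ratio 1.0, 80.7% G and C).

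In the BCL2 family MCL1 and BCL2, which keep cells alive, were the highest. BCL2 was at 470, 471 and 478 CPM (473 ± 4.46), with MCL1 at 255, 282 and 268 CPM (268 ± 13.5) and BCL2L1 (BCL-XL) at 59.5 ± 0.644 CPM. Per kilobase MCL1 (68.2 CPM per kb) was slightly above BCL2 (63.4), and the ranges of BCL2 in its 3 samples were the narrower. Genes of killer proteins of the family were expressed beside them. BCL2L11 (BIM) was at 138 ± 2.65 CPM, BMF at 109 ± 2.62 CPM and PMAIP1 (NOXA) at 102 ± 8.22 CPM. BIK was at 56.5 ± 5.77 CPM and BAX at 66.0 ± 5.79 CPM. Of the 21 members, 17 were expressed.

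All but 1 of 24 genes of the NF-kB list were expressed. Per kilobase the inhibitors NFKBIA (38.3 CPM per kb) and TNIP1 (33.7) led, followed by the subunits NFKB1 (26.7), RELB (21.6) and REL (19.3). REL was at 217 ± 10.6 CPM, with 50.7% of its exonic bases shared with another gene, and TNFAIP3, a further inhibitor, at 12.3 ± 0.568 CPM. NFKB2 was at 19.8, 17.6 and 14.8 CPM. In the STAT family STAT6, which answers interleukin 4, led at 170 ± 5.91 CPM and STAT3 was at 41.1 ± 1.56 CPM, and STAT4, SOCS2 and SOCS3 were silent. TLR10 was the highest Toll-like receptor at 186, 186 and 190 CPM (187 ± 2.16); TLR9, whose exons overlap another gene by 83.5%, was at 7.92 ± 1.2 CPM and the adaptor MYD88 at 29.1 ± 1.41 CPM.

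Genes of DNA replication and division were among the highest lists. All 23 proliferation genes were expressed, at a median of 325 CPM, with MCM7 at 1181 ± 49.1 CPM and PCNA at 375, 430 and 459 CPM (421 ± 42.7). TYMS, thymidylate synthase, was the exception at 7.94, 8.86 and 7.84 CPM (8.21 ± 0.559), but 64.6% of its exonic bases are shared with ENOSF1 and TYMSOS, so its value is uncertain. Of the kinases of the first gap phase, CDK6 (443 ± 17.6 CPM) was above CDK4 (253 ± 21.1 CPM) in counts and below it per kilobase (38.2 against 122 CPM per kb), though 51.9% of the exonic bases of CDK4 are shared with TSPAN31. Only CCND3 of the D cyclins was expressed (28.9 ± 1.46 CPM): CCND1 had 4 counts and CCND2 6. MYC was at 342, 322 and 308 CPM and its partner MAX at 57.4 ± 3.64 CPM, while MYCN was silent.

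Chromatin regulators were widely expressed. Genes of BCL6 co-repressors were expressed, with HDAC1 at 508 ± 12.0 CPM, NCOR1 at 221 ± 5.24 CPM, HDAC3 at 108 ± 3.75 CPM and BCOR at 45.1 ± 1.47 CPM. Of 24 Polycomb genes 23 were expressed: EZH2 (91.7 CPM per kb) was above EZH1 (21.8), and BMI1, a part of Polycomb repressive complex 1, was at 1.32 ± 0.292 CPM, with 29.2% of its exonic bases shared with a read-through gene. Of the histone demethylases KDM1A (89.3 CPM per kb), KDM5A (38.9) and KDM3B (30.9) led. KDM4A (78.0 ± 3.71 CPM, 55.2% of exonic bases shared) and KDM4C (80.6 ± 1.16 CPM) were expressed, while KDM5B was at 1.01, 0.988 and 1.71 CPM. Among 49 genes often mutated or rearranged in this lymphoma 44 were expressed and none was silent; TNFRSF14 (0.357 ± 0.203 CPM) and SGK1 (0.400 ± 0.186 CPM) were low.

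Gene families were used to ask how selective the transcriptome was. Whole families of general function were expressed, such as all 8 E2F genes, all 5 KMT2 genes and all 8 chromobox genes. Lineage families were mostly closed: 3 of 39 HOX genes were expressed, the highest per kilobase HOXC4 at 2.15 ± 0.734 CPM, and no GATA gene. The PAX family held PAX5 and, at 2.38 ± 0.476 CPM, PAX6, 47.9% of whose exonic bases are shared with other genes. Of 42 chemokine ligand genes only CCL5 (9.19 ± 0.958 CPM) and CCL28 (4.06 ± 0.642 CPM) were expressed. Of 39 interleukin genes IL16, at 88.7 ± 1.07 CPM, IL23A and IL17D were expressed, against 12 of 30 interleukin receptor genes. IL16 shares 46.0% of its exonic bases with other genes.

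A few members stood out from otherwise closed families. OR13A1 was the only expressed gene among 372 olfactory receptors, at 28.7, 28 and 27.0 CPM (27.9 ± 0.854), and 327 others were silent. KRT10 was the only one of 55 keratins (11.6 ± 0.567 CPM). SIGLEC10 was the only one of 12 genes with a SIGLEC symbol (17.7 ± 1.14 CPM), a match that leaves out members under other symbols. SOX2, a stem-cell factor, was at 21.2, 20.4 and 24.7 CPM (22.1 ± 2.28) and POU4F1, a factor of sensory neurons, at 24.5 ± 1.83 CPM. Of 25 MAGE genes, which encode antigens of the germ line and of tumours, 3 were expressed: MAGEA12 was at 11.2 ± 1.14 CPM, MAGEA6 at 8.23 ± 1.07 and MAGEA3 at 6.99 ± 0.608; the last pair are near-identical, so their shares are uncertain. Genes with an LMO symbol, in contrast, were not a closed group. LMO7 (193 ± 8.37 CPM), LMO4 (58.5 ± 3.83 CPM) and LMO3 (29.7 ± 1.67 CPM) were expressed, while LMO1 was silent and LMO2 trace.

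**Figure D4:**
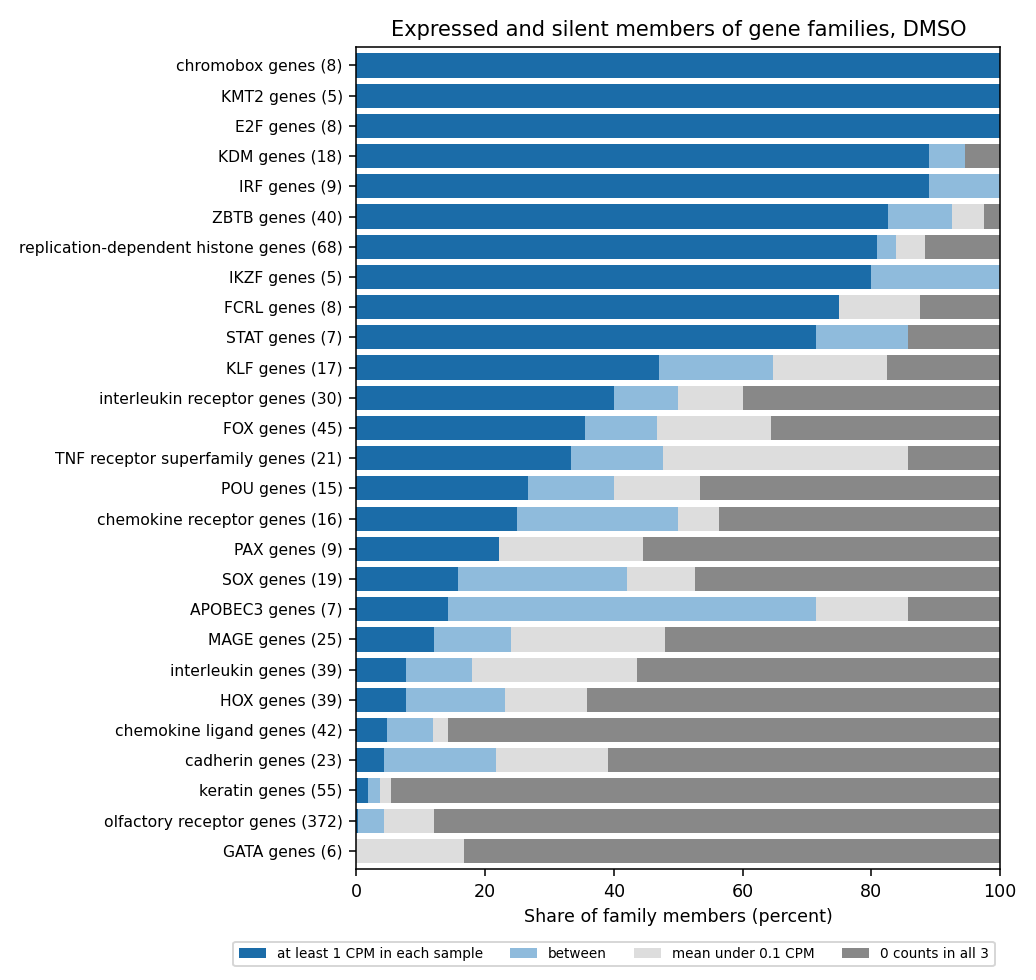
Share of members of each gene family in 4 classes of level (horizontal axis: percent of members; number of members in brackets). Dark blue marks members with at least 1 CPM in each sample and dark grey those with no counts; E2F, KMT2 and chromobox genes are all expressed, olfactory receptors and keratins almost all silent, and no GATA gene is expressed.

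Markers of other cell types were checked, since a bulk sample cannot tell few cells from little RNA per cell. Summed over 18 myeloid markers the samples held 4.19 to 4.35 CPM, over 13 erythroid and megakaryocyte markers 0.423 to 0.696 CPM, over 17 stromal, endothelial and follicular dendritic markers 4.21 to 5.72 CPM and over 12 epithelial markers 5.16 to 6.04 CPM. MPO, ITGAM, S100A8, HBB, COL1A1 and CDH1 had 0 counts. Of the 18 myeloid markers 2 were expressed, CD68 at a mean of 1.48 CPM and CSF1R at 1.45 CPM. All exonic bases of CD68 are shared with other genes, so its value is uncertain. EPCAM made up most of the epithelial sum (5.17 ± 0.374 CPM) and PECAM1 of the stromal one (3.52 ± 0.285 CPM). Of 21 T-cell markers, with 380 to 402 CPM in sum, 6 were expressed: LCK, CD247 (16.8 ± 1.37 CPM), CD3G (12.1 ± 1.44 CPM), CD3D (5.52 ± 0.329 CPM), ZAP70 (4.02 ± 0.611 CPM) and CD6 (2.07 ± 0.792 CPM). CD3E was at 0.412 ± 0.0720 CPM, and CD4, CD7, GATA3 and BCL11B were silent. Of 14 NK-cell and cytotoxic markers, with 30.1 to 35.1 CPM in sum, 1 was expressed: PRF1, the perforin of cytotoxic cells, was at 29.3 ± 2.91 CPM beside silent GZMA, GZMB and GNLY.

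Overlap of exon positions with other genes was set beside the classes of level. Of 104 silent genes on the lists, none shared as much as 50% of its exonic bases and 82 shared none. A share of 50% or more held for 0 of 44 trace, 7 of 74 low and 16 of 440 expressed genes. Such overlap does not measure copies elsewhere in the genome, so it cannot tell whether a 0 is an absent RNA. Near-identical copies show this limit. The histone genes HIST2H4A, HIST2H4B, HIST2H3A, HIST2H3C, HIST2H2AA3 and HIST2H2AA4, which lie as copied pairs, had 0.0% shared, yet all had 0 counts. RPL21, a ribosomal protein gene that every cell uses, had 4 counts, whereas all 30 genes of the small subunit were expressed. Values of genes with copies elsewhere in the genome are therefore uncertain.

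Spread between the samples was small for all but the rarest genes. The common biological coefficient of variation was 7.55% over 13745 genes (edgeR). The median coefficient of variation fell from 19.2% at 1 to 3 CPM to 5.62% at 30 to 100 CPM and 3.80% at 300 to 1000 CPM, each larger than the counting error of a sample at that level (12.1%, 2.19% and 0.754%). Pairs of samples correlated at r = 0.994 to 0.995 over 12381 genes, and no pair agreed within sampling noise (chi-square of 7.71 to 14.4 per degree of freedom). This does not show whether they came from separate cultures.

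DMSO 1 and DMSO 3 differed along GC content, with DMSO 2 between them. In DMSO 1 the median deviation from the mean of the 3 samples, on the log2 scale, ran from -0.07 in the lowest of 10 equal classes of transcript GC to 0.11 in the highest, and in DMSO 3 from 0.07 to -0.10. By transcript length the range was smaller, from -0.04 to 0.03 in DMSO 3. The lower values of DMSO 3 for histone genes (median deviation -0.08 over 55 genes) and the class II list (-0.11 over 8 genes) are of the same size as this trend, whose part in them was not tested.

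**Figure D5:**
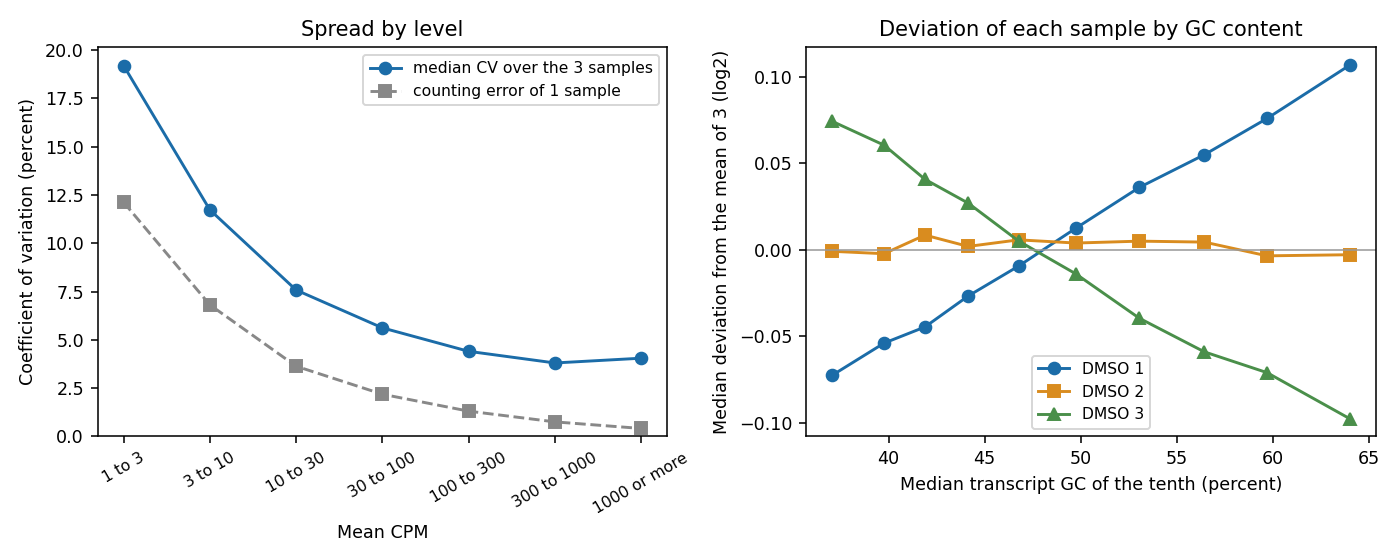
Left: median coefficient of variation over the 3 DMSO samples and counting error of a sample (percent) by mean CPM. Right: median log2 deviation of each sample from the mean of the 3 in 10 equal classes of transcript GC content; DMSO 1 rises from -0.07 to 0.11, DMSO 3 falls from 0.07 to -0.10 and DMSO 2 stays near 0.

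Among the 15 most variable symbols with at least 10 CPM were 7 small nucleolar RNAs, short RNAs that guide RNA modification, such as SNORA48 (72.8, 42.7 and 45.5 CPM) and SNORD10 (28.7, 37.6 and 19.6 CPM). Among coding genes EVI2B, a surface protein of blood cells, was at 17.7, 10.1 and 19.5 CPM, lowest in DMSO 2, and NRN1, a protein of neurite growth, at 6.69, 12.3 and 12.6 CPM, lowest in DMSO 1. DDIT4, a stress gene that restrains mTOR, was at 21.4, 28.9 and 35.1 CPM. DMSO 3 was the lowest sample in 5 of the 7 small nucleolar RNAs and in both MTRNR2L symbols among the 15.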

How the data were processed

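RNA of 3 DMSO samples of OCI-Ly1 was used. The authors deposited 1 table of whole-number, unnormalized counts for 25370 gene symbols, made from libraries depleted of ribosomal RNA with Ribo-zero, per the labels' protocols. Tools listed in the submitters' processing notes are featureCounts 1.4.6 (Subread), Bowtie2 2.2.6 and TopHat2 2.0.14, beside the builds hg19 and mm10, with no role given. Neither annotation nor strandedness is given in the sources used here. Samples were grouped by title.

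Counts were scaled by TMM over the 3 samples (edgeR 4.0.16, R 4.3.3; filterByExpr, minimum count 10, minimum total 15) and given as CPM. For correlations and deviations 0.1 was added to CPM before log2 was taken of the deposited counts. No comparison between groups was made or tested. The dispersion estimate was tested on simulated data. Transcript lengths of at least 200 bases, GC content and exon overlap came from GENCODE v29 and promoters from RefSeq (GRCh38.p14), matched by symbol: 23558 symbols had a length and 15120 coding symbols, 79.9%, a promoter.

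Of 680 genes on 40 lists 662 were found, 4 through another symbol, and 56 families were defined by symbol. The members and lists were chosen with earlier results of these data known. Genes to name were taken by a rule, though not every gene it allows is named: the 6 markers; the 20 most abundant symbols by CPM and by CPM per kb; the 6 highest and up to 4 lowest members of a list; the highest members of a family; the 15 most variable symbols; and the 5 nearest to BCL6. Other genes, and the printed promoters, were chosen after their values were seen. Alternatives were other scalings (DESeq2 1.42.0 among them), thresholds, lengths, thinning and leaving out each sample. Some members of the lists are not reported here.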

Additional observations from a re-analysis of the deposited data

How the results depend on the processing

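The number of expressed genes stayed within 1.5 times under every alternative run, from 9839 at a threshold of 5 CPM to 12859 at 0.5 CPM; thinning to the smallest total gave 12014, and leaving out a sample 12122 to 12183. Shares of counts in the 10 and 100 most abundant genes were 4.08% and 16.2% over coding genes only, and per kilobase the 10, 100 and 1000 highest held 17.1%, 38.1% and 67.1%. Without a sample the same shares were 5.15% to 5.26%, 17.3% to 17.4% and 50.2% to 50.4%. The median of the germinal-centre factor list (121 CPM) was 126 CPM with TMM over all 9 samples, 131 CPM without the 20 most abundant symbols in the total and 157 CPM over expressed members only; without a sample it was 120.4 to 122.3 CPM. The variation coefficient ran from 6.49% to 8.29%. Of 42 alternative values for the levels of the 6 markers 7 moved by more than the spread, all 7 upward under those 2 scalings, and 15 of 36 ranks did, most with another length; all exonic bases as length was added after the data were seen. Depth limits genes at 0 counts, whose level may be up to 0.0256 CPM. No paired analysis was possible because only 1 group was used.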

Other observations

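Among long non-coding RNAs, MIR17HG, the host of a microRNA cluster linked to B-cell lymphoma, was at 116, 120 and 114 CPM (117 ± 2.82), whereas MIR155HG, host of the microRNA of activated B cells, had 20 counts in all (0.176 ± 0.0747 CPM). TERC, the RNA of telomerase, was at 302 ± 26.4 CPM and SCARNA2 at 453, 479 and 318 CPM, lowest in DMSO 3; 81.0% of the exonic bases of the first and all of the second are shared with another annotation entry. DNMT1 led the DNA methylation genes at 554 ± 12.0 CPM, with DNMT3B at 36.1 ± 2.05 CPM and DNMT3A at 12.0 ± 1.12 CPM. Of 7 APOBEC3 genes only APOBEC3G was expressed (1.60 ± 0.0822 CPM), and APOBEC3B had 2 counts. The sterol enzyme CYP51A1 was the highest of 55 cytochrome P450 genes at 263 ± 13.6 CPM. The basement-membrane genes COL4A3 (70.2 ± 2.86 CPM) and COL4A4 (47.0 ± 1.75 CPM), which are neighbours in the genome, were the highest of 44 collagen genes per kilobase, at 8.67 and 4.69 CPM per kb.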
